A study of Mus musculus with 10 samples.

Results

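Livers of male mice whose transgene encodes human SREBP-1a in its active, nuclear form (TgSREBP-1a) were compared with livers of male wild type littermates. The comparison used 4 of the 10 arrays of the study, 2 per group, and 12411 of the 12477 probe sets on the Affymetrix MG_U74Bv2 array, after 66 control probe sets were left out. Both groups were 12 to 16 weeks old and ate a diet high in protein and low in carbohydrate for 2 weeks, which served to raise expression of the transgene. RNA from 5 livers was pooled in each group, and each pool (20 µg) was hybridised 2 times. The 2 arrays of a group are therefore technical duplicates, and every p-value below sets 2 pools against hybridisation error and carries no information on the spread between mice. Mice with the nuclear form of human SREBP-2 (TgSREBP-2) had the same age, sex and diet and shared the wild type pool. A separate part of the study held male Scap-/- mice, in which Cre under the MX1 promoter removed Scap, and wild type mice. These mice were 10 to 12 weeks old, ate chow and received 4 injections of polyinosinic-polycytidylic acid, with livers taken 14 days after the last. The promoter of the SREBP transgenes and the number of founder lines are not given in the sources used here, and the mice kept their own SREBP genes.

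SREBPs are transcription factors that are made as precursors in the membrane of the endoplasmic reticulum. SCAP carries the precursor to the Golgi, where proteases release the nuclear part, and INSIG proteins hold SCAP back when sterols are plentiful. A transgene that codes for the nuclear part alone bypasses that control. SREBP-1a acts on genes of both fatty acid and cholesterol synthesis, whereas SREBP-2 acts mainly on genes of cholesterol synthesis and sterol uptake, and the liver is a main site of both pathways.

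All values are on a log2 scale, on which 1 unit is a doubling. Differences are TgSREBP-1a minus wild type, with limma's standard error after the ± sign (n = 2 arrays per group), and adjusted p-values are limma's, Benjamini-Hochberg adjusted over the 12411 probe sets. Calls required both an adjusted p under 0.05 and a difference of 1.5-fold or more. "Rose" and "fell" are used of called probe sets. Duplicate arrays correlated at 0.994 in both groups across probe sets, against 0.979 to 0.984 between the groups, and the 4 array medians lay between 5.64 and 5.66. The difference between the 3' and 5' probe sets of Gapdh, a measure of RNA and labelling quality, was 0.78 and 0.83 in wild type and 0.66 and 0.59 in TgSREBP-1a. For beta-actin it was 1.09 and 0.99 in wild type and 0.84 and 0.85 in TgSREBP-1a. The 3' excess was thus lower on both TgSREBP-1a arrays than on the wild type arrays for both control genes. On TgSREBP-2 arrays 1 and 2, used further below, this excess was 0.97 and 0.46 for Gapdh and 1.27 and 1.15 for beta-actin. The part of the 3' excess in the results was not tested. Apoa1, an apolipoprotein made by hepatocytes, read 13.39 and 13.29 on the wild type arrays and 12.97 and 12.86 on the TgSREBP-1a arrays, near the top of the array's range in every library. Srebf1 and Scd1 were not analysed here. Srebf2 and Scap were both measured and neither was called, at -0.05 ± 0.14 and 0.10 ± 0.18.

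Expression of 169 probe sets (143 named genes) was higher and of 101 (79 named genes) lower in TgSREBP-1a than in wild type. These are 1.36% and 0.814% of the 12411 probe sets tested. The rises had a median of 0.99, 84 of them reached 2-fold and 22 reached 4-fold. The falls had a median of -0.99, with 49 at 2-fold or more and 14 at 4-fold or more. Over all probe sets the median difference was -0.02, with quartiles at -0.10 and 0.07. Rises began from probe sets of lower wild type signal (median 6.22) than falls (median 8.34), and 60 of the 101 falls but 19 of the 169 rises started at a wild type level of 8 or more. In all 270 called probe sets both TgSREBP-1a arrays lay outside the range of the wild type arrays. That separation alone was common, since 19% of all probe sets had both TgSREBP-1a arrays above and 23.4% had both below.

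**Figure D1:**
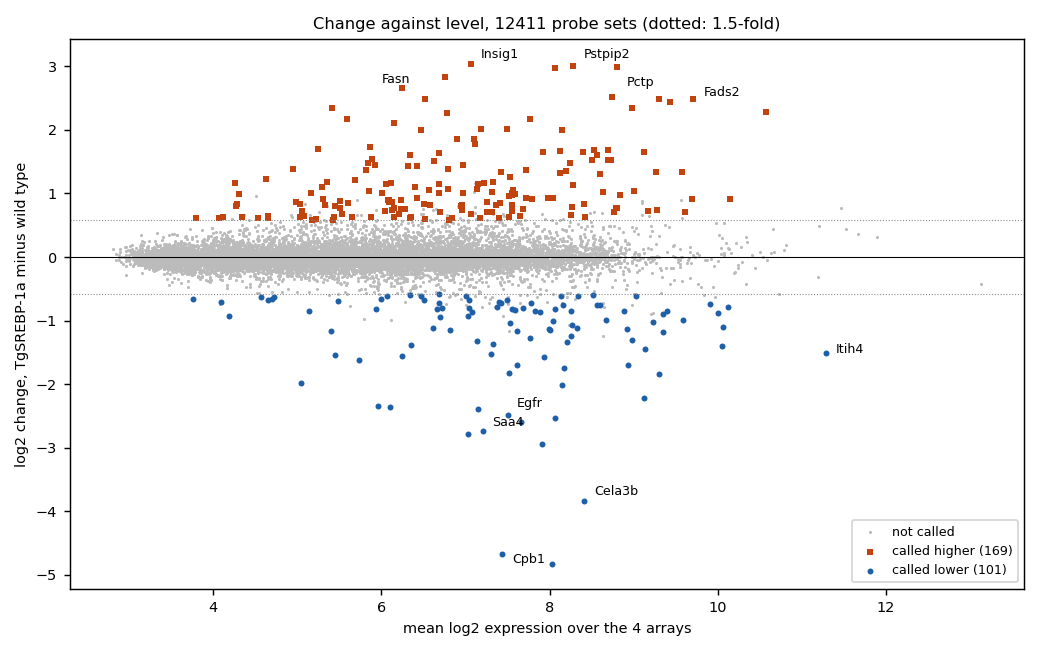
Difference between TgSREBP-1a and wild type (y axis, log2) against the mean level of the 4 arrays (x axis, log2) for 12411 probe sets, 1 point each; dotted lines mark 1.5-fold. The 169 called rises lie over the whole range of levels, and the 101 called falls lie mostly at medium and high levels.

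The number of calls depended on each array. Without TgSREBP-1a array 1, 87 probe sets were called higher and 55 lower, and without TgSREBP-1a array 2, 143 and 50. Without wild type array 1 the counts were 107 and 42, and without wild type array 2 they were 97 and 67. Of the 270 calls, 125 (84 higher and 41 lower) held whichever array was left out. Those 125 had a median absolute difference of 1.48, against 0.78 for the others. For the genes below whose call was lost in this way, the arrays concerned and the highest adjusted p (limma) are given with their values.

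Of 12 measured genes of SREBP activation and its control, 1 rose and none fell, and the list's median was 0.16. Insig1, which retains SCAP and the SREBP precursors in the endoplasmic reticulum, read 5.62 and 5.47 on the wild type arrays and 8.62 and 8.54 on the TgSREBP-1a arrays. Both transgenic arrays stood far above both wild type arrays, a difference of 3.03 ± 0.24 (8.17-fold higher, adjusted p = 6.03e-05). This was the largest rise of any named gene in the comparison. The related Insig2 stood at 0.32 ± 0.25 and Mbtps2, which codes for the protease that makes the final cut in the precursor, at 0.32 ± 0.11, and neither was called. The other 11 members lay between -0.14 and 0.33.

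Genes of cholesterol synthesis were higher: 6 of 9 measured members rose, none fell, and the median of the list was 1.61. Pmvk, phosphomevalonate kinase of the mevalonate pathway, read 6.86 and 6.29 on the wild type arrays and 9.76 and 9.35 on the TgSREBP-1a arrays. It rose by 2.98 ± 0.25 (7.87-fold, adjusted p = 9.70e-05). Idi1, which interconverts the isoprenoid building blocks, read 5.61 and 5.46 on the wild type arrays and 7.06 and 7.23 on the TgSREBP-1a arrays and rose by 1.61 ± 0.16 (adjusted p = 2.23e-04). For both genes the gap between the groups was larger than the gap between duplicates.

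The later, sterol-forming steps were also higher. Lss, which closes the sterol ring system, read 7.72 and 7.80 in wild type and 9.62 and 9.11 in TgSREBP-1a and rose by 1.61 ± 0.15 (adjusted p = 2.12e-04). Cyp51, the lanosterol demethylase that follows, read 5.28 and 4.91 in wild type and 7.35 and 7.08 in TgSREBP-1a and rose by 2.12 ± 0.15 (adjusted p = 3.17e-05). Nsdhl, which removes the next methyl groups, read 5.94 and 6.14 in wild type and 7.11 and 7.06 in TgSREBP-1a and rose by 1.05 ± 0.13 (adjusted p = 0.0011). Each of the 3 was separated from wild type by more than the gap between its duplicates. Hsd17b7, the ketosteroid reductase of the same demethylation, read 6.16 and 5.56 in wild type and 7.52 and 7.49 in TgSREBP-1a, and its wild type arrays differed from each other by more than those of the other members. It rose by 1.64 ± 0.32 (adjusted p = 0.019), and the call ended without TgSREBP-1a array 1, TgSREBP-1a array 2 or wild type array 2 (highest adjusted p 0.2). Sc5d, the desaturase near the end of the pathway, stood at 0.66 ± 0.17 (adjusted p = 0.084), and Lbr, a nuclear envelope protein with sterol reductase activity, at 0.23 ± 0.10, both uncalled. Ggps1, on the branch to geranylgeranylated proteins, was at -0.11 ± 0.11.

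Among 20 genes of sterol uptake and transport inside the cell, 3 rose and 1 fell, and the median was 0.01. Stard4, a soluble carrier of cholesterol between membranes, read 7.86 and 7.51 on the wild type arrays and 9.51 and 9.21 on the TgSREBP-1a arrays and rose by 1.68 ± 0.20 (adjusted p = 9.87e-04). Abcg5, which pairs with Abcg8 in the transporter that exports sterols into bile, read 8.66 and 8.53 on the wild type arrays and 10.07 and 9.79 on the TgSREBP-1a arrays and rose by 1.34 ± 0.15 (adjusted p = 6.13e-04). In neither gene did the groups overlap. Mylip, a ubiquitin ligase, rose by 0.87 ± 0.15 (adjusted p = 0.011), but the call ended without any 1 of the 4 arrays (highest adjusted p 0.11). Scarb2, a lysosomal membrane protein, fell by 0.75 ± 0.14 (adjusted p = 0.015), and the call ended without TgSREBP-1a array 1, TgSREBP-1a array 2 or wild type array 1 (highest adjusted p 0.16). Scarb1, the hepatic HDL receptor, stood at -0.22 ± 0.11 and the sterol-binding proteins of the Osbpl family measured here lay within the list's uncalled range of -0.32 to 0.37.

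Fatty acid synthesis was higher at the enzymes that carry out the committed steps. Of 12 measured members of the list, 5 rose and none fell, with a median of 0.35. Acss2, which turns acetate into cytosolic acetyl-CoA, read 8.37 and 7.76 on the wild type arrays and 10.74 and 10.36 on the TgSREBP-1a arrays. It rose by 2.49 ± 0.21 (5.61-fold, adjusted p = 1.06e-04). Acaca, the cytosolic acetyl-CoA carboxylase, read 8.34 and 8.08 on the wild type arrays and 10.78 and 10.53 on the TgSREBP-1a arrays and rose by 2.44 ± 0.14 (5.44-fold, adjusted p = 6.85e-06). Fasn, fatty acid synthase, read 5.45 and 5.23 on the wild type arrays and 8.31 and 8.02 on the TgSREBP-1a arrays and rose by 2.83 ± 0.16 (7.12-fold, adjusted p = 6.94e-06), with a second probe set at 2.66 ± 0.11. For each of the 3 genes, both TgSREBP-1a arrays lay far above both wild type arrays relative to the gaps between duplicates.

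Acacb, the carboxylase of the mitochondrial surface whose product restrains fatty acid oxidation, read 9.03 and 8.78 on the wild type arrays and 10.42 and 10.06 on the TgSREBP-1a arrays. It rose by 1.33 ± 0.15 (2.52-fold, adjusted p = 6.23e-04). Me1, malic enzyme, a source of the NADPH that fatty acid synthase consumes, read 4.26 and 4.23 on the wild type arrays and 6.84 and 6.35 on the TgSREBP-1a arrays and rose by 2.35 ± 0.29 (adjusted p = 0.0012). Both wild type arrays were below the median wild type level of all probe sets, 5.65, and both TgSREBP-1a arrays above it. It was the only 1 of 6 measured genes of NADPH production to be called, and Tkt and Idh2, a transketolase and an isocitrate dehydrogenase, stood at 0.08 ± 0.13 and -0.09 ± 0.12. Mcat, Mecr, Oxsm and Cbr4, the enzymes of the separate fatty acid synthesis of mitochondria, stood at 0.20, 0.11, -0.09 and 0.49, all uncalled. Mlxipl, the carbohydrate-responsive factor ChREBP, was at 0.07 ± 0.19, and Mid1ip1, an activator of acetyl-CoA carboxylase, at -0.00 ± 0.15.

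Of 12 measured genes of desaturation and elongation 2 rose and none fell, and the median was 0.08. Fads2, the delta-6 desaturase that starts the synthesis of long polyunsaturated fatty acids, read 9.51 and 9.36 on the wild type arrays and 11.78 and 11.64 on the TgSREBP-1a arrays. It rose by 2.28 ± 0.14 (4.85-fold, adjusted p = 1.46e-05) and by 2.49 ± 0.19 on its other called probe set. Tlcd1, a membrane protein that affects which fatty acids enter phospholipids, read 7.65 and 7.49 on the wild type arrays and 9.36 and 9.08 on the TgSREBP-1a arrays and rose by 1.65 ± 0.13 (adjusted p = 6.03e-05). By contrast Elovl1, Elovl2 and Elovl7, elongases, stood at 0.07, 0.07 and 0.17, and Fads3 and Fads6 at -0.02 and 0.14. The uncalled members lay between -0.30 and 0.20.

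**Figure D2:**
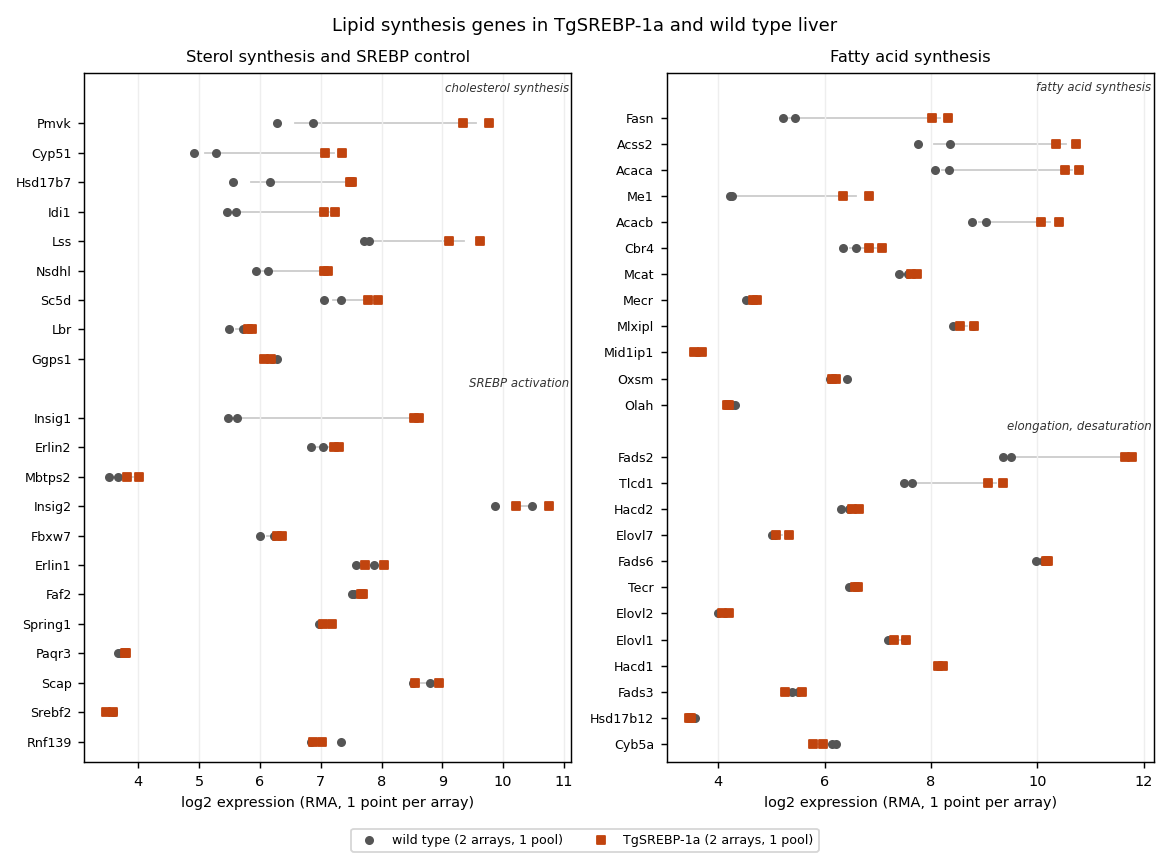
Log2 level on each of the 4 arrays (x axis) for every measured gene of 4 lists (y axis), with wild type and TgSREBP-1a arrays in different colours. The lists are cholesterol synthesis (9), SREBP activation and control (12), fatty acid synthesis (12) and elongation and desaturation (12). The 6, 1, 5 and 2 called genes of these lists have both TgSREBP-1a arrays above both wild type arrays, and most other genes have the 4 arrays close together.

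Acyl-CoA synthetases moved in both directions, with 4 rises and 1 fall among 12 measured genes and a median of 0.01. Acsl3, a long-chain synthetase of the endoplasmic reticulum and lipid droplets, read 4.51 and 4.49 on the wild type arrays and 6.92 and 6.43 on the TgSREBP-1a arrays. It rose by 2.18 ± 0.15 (4.52-fold, adjusted p = 2.53e-05), while a second Acsl3 probe set stood at 0.15 ± 0.16. Aacs, which activates acetoacetate for lipid synthesis, read 7.60 and 7.32 in wild type and 9.02 and 8.55 in TgSREBP-1a and rose by 1.32 ± 0.17 (adjusted p = 0.0014). Acsl4, which prefers arachidonate, rose by 1.10 ± 0.17 (adjusted p = 0.0051), and the call ended without TgSREBP-1a array 1 or wild type array 2 (highest adjusted p 0.072). The fall was in Acsm1, a medium-chain synthetase of the mitochondrial matrix, which read 9.67 and 9.30 in wild type and 8.46 and 8.24 in TgSREBP-1a and changed by -1.13 ± 0.18 (adjusted p = 0.0071). In that case the call ended without TgSREBP-1a array 2 or wild type array 1 (highest adjusted p 0.093).

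To show what the start sites of these genes hold, 300 base promoter windows (250 bases before and 50 after the start) were taken from RefSeq, assembly GRCm38.p6, for 116 of the 143 named genes called higher and 62 of the 79 called lower. Insig1 and Fasn are shown as the members with the largest and best known responses, and were chosen after their values were seen. Echdc1 and Camk1d are shown as the 2 genes with the largest rises that have a window with the sterol regulatory element searched here. Each of them has 2 windows, and the 1 that holds the element is printed. Camk1d, a calcium-dependent protein kinase, falls outside the rule for named genes, and rose by 1.52. Capitals mark matches, on either strand, to a loose sterol regulatory element (TCACNCCAC), to the E-box CACGTG and to CCAAT, the box bound by the factor NF-Y.
Insig1, chr5:28071162-28071461, plus strand: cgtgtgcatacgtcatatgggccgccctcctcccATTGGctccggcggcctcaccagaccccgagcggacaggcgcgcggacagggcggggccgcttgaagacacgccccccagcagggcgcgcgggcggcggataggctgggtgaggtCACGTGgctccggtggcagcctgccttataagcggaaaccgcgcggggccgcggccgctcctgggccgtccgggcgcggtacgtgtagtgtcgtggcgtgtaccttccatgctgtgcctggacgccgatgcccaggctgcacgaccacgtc
Fasn, chr11:120824498-120824797, minus strand: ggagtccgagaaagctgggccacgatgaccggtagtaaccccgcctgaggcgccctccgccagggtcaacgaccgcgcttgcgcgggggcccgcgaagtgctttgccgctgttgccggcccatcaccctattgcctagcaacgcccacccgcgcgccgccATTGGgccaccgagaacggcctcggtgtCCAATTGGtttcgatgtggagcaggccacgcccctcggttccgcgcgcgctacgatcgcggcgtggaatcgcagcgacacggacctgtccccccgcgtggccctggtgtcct
Echdc1, chr10:29313250-29313549, plus strand: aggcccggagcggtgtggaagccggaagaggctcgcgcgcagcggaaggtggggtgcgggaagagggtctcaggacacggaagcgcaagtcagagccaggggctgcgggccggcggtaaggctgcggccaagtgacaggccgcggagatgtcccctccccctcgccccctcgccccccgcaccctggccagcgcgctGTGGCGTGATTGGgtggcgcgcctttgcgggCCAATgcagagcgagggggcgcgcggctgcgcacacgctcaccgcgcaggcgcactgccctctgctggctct
Camk1d, chr2:5675997-5676296, minus strand: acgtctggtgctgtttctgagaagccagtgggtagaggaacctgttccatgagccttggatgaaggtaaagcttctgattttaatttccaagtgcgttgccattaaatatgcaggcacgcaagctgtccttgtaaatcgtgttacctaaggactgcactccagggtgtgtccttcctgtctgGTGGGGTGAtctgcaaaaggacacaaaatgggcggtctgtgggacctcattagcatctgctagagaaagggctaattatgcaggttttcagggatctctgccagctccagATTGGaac

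The Insig1 window held an E-box 101 bases and a CCAAT match 216 bases before the start. The Fasn window held 3 CCAAT matches, at 90, 62 and 59 bases before the start, the last 2 overlapping in the run CCAATTGG. In the Echdc1 window the sterol element match lay 53 bases before the start and shared a base with a CCAAT match, on the same strand, at 45, with another, on the other strand, at 22. In the Camk1d window it lay 68 bases before the start. Among genes called higher with a window, 6 of 116 (5.17%) held TCACNCCAC, against 92 of 6033 measured genes (1.52%) and 0 of 62 genes called lower. The 6 were Echdc1, Camk1d, Spag9, Brd1, Gstm7 and Aldh9a1, of which Spag9 and Brd1 are also named only because they hold it. Only the calls of Camk1d and Brd1 held whichever array was left out. The losses of Echdc1, Gstm7 and Aldh9a1 are given with their values below. For Spag9 the call ended without TgSREBP-1a array 1, wild type array 1 or wild type array 2 (highest adjusted p 0.17). The stricter TCACCCCAC was in 4 of the 116 (3.45%) and in 0.663% of measured genes. CCAAT was in 56% of the genes called higher, 46.8% of those called lower and 42.3% of measured genes, and in a window of each of the 9 measured cholesterol synthesis genes. CACGTG was in 5.17% of the genes called higher and 10.8% of measured genes. Of all RefSeq genes with such a window, 1.44% held TCACNCCAC, 41.1% CCAAT and 8.09% CACGTG. These shares are per gene, and a gene could have more than 1 window. Counted per window, TCACNCCAC was in 3.55% of the 169 windows of genes called higher. It was in 1.22% of the 7800 windows of measured genes. For CCAAT the shares per window were 45% and 36.8%. These are matches of letters in a short window.

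Lipid assembly changed at few genes. Among 16 genes of glycerolipid synthesis 2 rose and none fell, with a median of 0.18. Lpin1, the phosphatidate phosphatase that yields diacylglycerol, read 8.14 and 7.76 on the wild type arrays and 9.38 and 9.13 on the TgSREBP-1a arrays and rose by 1.30 ± 0.22 (adjusted p = 0.0096), but the call ended without TgSREBP-1a array 1 or wild type array 2 (highest adjusted p 0.13). Pnpla3, a lipid droplet protein linked to fatty liver, read 6.63 and 6.89 on the wild type arrays and 8.31 and 7.86 on the TgSREBP-1a arrays and rose by 1.33 ± 0.15 (2.51-fold, adjusted p = 8.23e-04). Lpin2, a relative of Lpin1, stood at 0.85 ± 0.24 (adjusted p = 0.12), past 1.5-fold without being called. The acyltransferases Gpat3, Gpat4, Agpat1, Agpat2 and Agpat3 lay at -0.11, -0.29, -0.01, 0.34 and 0.16.

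In the phospholipid list, 1 of 20 measured genes rose and none fell, and the median was 0.04. Pctp, which carries phosphatidylcholine between membranes, read 7.42 and 7.18 on the wild type arrays and 10.43 and 10.16 on the TgSREBP-1a arrays. Its rise of 2.99 ± 0.28 (7.96-fold, adjusted p = 2.07e-04) was the third largest of all named genes. The enzymes that make phosphatidylcholine and phosphatidylethanolamine did not move with it, with Cept1, Chpt1, Pcyt2 and Selenoi at 0.03, -0.07, 0.07 and -0.23. Of 16 sphingolipid genes 2 rose and none fell (median 0.09). B4galt6, a lactosylceramide synthase, read 5.43 and 5.50 on the wild type arrays and 7.63 and 7.32 on the TgSREBP-1a arrays and rose by 2.01 ± 0.12 (4.02-fold, adjusted p = 7.19e-06). Its 2 dimmer probe sets rose by 0.61 ± 0.11 and 0.67 ± 0.15, and for the first of them the call ended without TgSREBP-1a array 1, TgSREBP-1a array 2 or wild type array 1 (highest adjusted p 0.17), while for the other the call ended without TgSREBP-1a array 1, wild type array 1 or wild type array 2 (highest adjusted p 0.31). Kdsr, the reductase in the second step of sphingoid base synthesis, rose by 0.63 ± 0.10 (adjusted p = 0.0067), and the call ended without TgSREBP-1a array 1, wild type array 1 or wild type array 2 (highest adjusted p 0.095).

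Of 7 genes of lipid droplets and lipolysis 2 rose and none fell, with a median of 0.49. Hilpda, an inhibitor of the lipase ATGL, read 6.99 and 6.94 on the wild type arrays and 7.68 and 7.65 on the TgSREBP-1a arrays and rose by 0.70 ± 0.09 (adjusted p = 0.0017). Abhd5, the coactivator of the same lipase, read 6.27 and 5.96 on the wild type arrays and 7.39 and 7.13 on the TgSREBP-1a arrays and rose by 1.14 ± 0.17 (adjusted p = 0.0035), but the call ended without TgSREBP-1a array 1 or wild type array 2 (highest adjusted p 0.062). Both an inhibitor and an activator of ATGL were thus higher in the transgenic pool. Hsd17b13, another droplet protein, stood at 0.83 ± 0.24 (adjusted p = 0.14). In the lipoprotein list, 1 of 5 genes rose: Tm6sf2, which takes part in loading lipid onto very low density lipoprotein, at 0.81 ± 0.14 (adjusted p = 0.0099), although the call ended without TgSREBP-1a array 1 or wild type array 2 (highest adjusted p 0.13). Mttp, the transfer protein of the same assembly, was at 0.33 ± 0.10 and not called.

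Fatty acid oxidation showed 2 falls and no rise among 12 measured genes, with a median of 0.09. Crot, the carnitine octanoyltransferase of peroxisomes, read 8.32 and 7.80 on the wild type arrays and 6.59 and 6.49 on the TgSREBP-1a arrays and fell by 1.52 ± 0.22 (2.87-fold lower, adjusted p = 0.0033). Ppara, the nuclear receptor that drives oxidation genes in fasting, read 7.62 and 7.15 on the wild type arrays and 6.27 and 6.20 on the TgSREBP-1a arrays and fell by 1.15 ± 0.19 (adjusted p = 0.0087), but the call ended without TgSREBP-1a array 1, TgSREBP-1a array 2 or wild type array 1 (highest adjusted p 0.1). The other enzymes of the list were not called, among them Acadsb, Decr1, Acad11 and Hacl1 at -0.20, 0.15, 0.33 and 0.33. Acyl-CoA thioesterases, which release free fatty acids from CoA and include known targets of PPAR alpha, showed 3 rises among 10, or 1 without TgSREBP-1a array 1 or wild type array 2. Acot2, of mitochondria, read 8.25 and 8.34 on the wild type arrays and 10.11 and 9.80 on the TgSREBP-1a arrays and rose by 1.66 ± 0.15 (3.16-fold, adjusted p = 1.57e-04). Acot1, its cytosolic relative, rose by 1.05 ± 0.18 (adjusted p = 0.0098), and the call ended without TgSREBP-1a array 1, TgSREBP-1a array 2 or wild type array 2 (highest adjusted p 0.11). Acot3, of peroxisomes, rose by 0.61 ± 0.12 (adjusted p = 0.027), and the call ended without TgSREBP-1a array 1, wild type array 1 or wild type array 2 (highest adjusted p 0.29). Acot1, Acot2 and Acot3 are close relatives in sequence, so their probe sets may share signal.

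Peroxisomal genes held 1 fall among 13 measured members and a median of -0.03. Hao1, the glycolate oxidase of hepatocyte peroxisomes, read 8.59 and 8.35 on the wild type arrays and 6.71 and 6.82 on the TgSREBP-1a arrays and fell by 1.70 ± 0.16 (adjusted p = 1.57e-04), with a second probe set at -1.83 ± 0.25. The assembly factors Pex3, Pex13, Pex16 and Pex26 stood at 0.11, -0.03, 0.46 and -0.35. In the bile acid list 1 of 13 rose. Slco1a4, an uptake carrier for organic anions, read 6.05 and 6.14 on the wild type arrays and 7.60 and 7.35 on the TgSREBP-1a arrays and rose by 1.38 ± 0.15 (adjusted p = 5.44e-04), whereas Slco1b2 and Slco2b1, other carriers of the family, stood at -0.74 ± 0.18 and -0.43 ± 0.19 without a call. Cyp27a1, which opens the alternative route of bile acid synthesis, was at -0.32 ± 0.18.

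The falls included plasma proteins made by hepatocytes. Of 5 measured complement genes 4 fell and none rose, with a median of -1.01, against -0.02 for all probe sets. C8a, a chain of the membrane attack complex, read 9.13 and 8.80 on the wild type arrays and 6.43 and 6.30 on the TgSREBP-1a arrays and fell by 2.60 ± 0.24 (6.06-fold lower, adjusted p = 1.84e-04). C8b, the chain bound to it, read 10.40 and 10.07 on the wild type arrays and 8.14 and 7.88 on the TgSREBP-1a arrays and fell by 2.22 ± 0.16 (4.67-fold lower, adjusted p = 3.17e-05). C6, another part of that complex, read 10.20 and 10.35 on the wild type arrays and 9.55 and 9.54 on the TgSREBP-1a arrays and fell by 0.73 ± 0.10 (adjusted p = 0.002). For these 3 genes the TgSREBP-1a arrays lay below both wild type arrays by more than the gap between duplicates. C1s1, a protease of the classical pathway, fell by 1.01 ± 0.20 (adjusted p = 0.024), and the call ended without TgSREBP-1a array 1, TgSREBP-1a array 2 or wild type array 1 (highest adjusted p 0.26). Masp1, a protease of the lectin pathway, was at 0.13 ± 0.10.

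Of 7 acute phase genes 3 fell and none rose, with a median of -0.78; without TgSREBP-1a array 2 or wild type array 1, 1 was called. Saa4, the constitutive serum amyloid A of HDL, read 8.76 and 8.40 on the wild type arrays and 5.83 and 5.86 on the TgSREBP-1a arrays and fell by 2.74 ± 0.16 (6.67-fold lower, adjusted p = 7.19e-06). Itih4, an inter-alpha-trypsin inhibitor heavy chain, read 12.19 and 11.89 on the wild type arrays and 10.65 and 10.41 on the TgSREBP-1a arrays and fell by 1.51 ± 0.26 (adjusted p = 0.0097), but the call ended without TgSREBP-1a array 1, TgSREBP-1a array 2 or wild type array 1 (highest adjusted p 0.12). Steap4, a metalloreductase induced in inflammation, fell by 0.78 ± 0.15 (adjusted p = 0.019), and the call ended without TgSREBP-1a array 2, wild type array 1 or wild type array 2 (highest adjusted p 0.18). Fgl1, a secreted fibrinogen-like protein, stood at -0.90 ± 0.22 (adjusted p = 0.063), and Socs3 and Cebpd, which respond to interleukin signals, at 0.08 and 0.20. The coagulation list had no call among 5 genes, with F10 and F11 at -0.17 and -0.38.

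Among 6 other secreted proteins and growth factor receptors 2 fell. Egfr, the receptor for epidermal growth factor, read 8.92 and 8.59 on the wild type arrays and 6.37 and 6.17 on the TgSREBP-1a arrays and fell by 2.48 ± 0.22 (5.58-fold lower, adjusted p = 1.26e-04). Fetub, a liver-made protease inhibitor of plasma, read 9.99 and 9.71 on the wild type arrays and 8.50 and 8.32 on the TgSREBP-1a arrays and fell by 1.44 ± 0.13 (2.72-fold lower, adjusted p = 1.57e-04). Met, the receptor for hepatocyte growth factor, Insr, the insulin receptor, and Igf1 stood at -0.37 ± 0.18, -0.34 ± 0.19 and -0.56 ± 0.23, none called.

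Of the 67 lists, the 1 with the most falls held genes known to be higher in male than in female mouse liver. In it 12 of 20 measured members fell and none rose, against 0.814% of all probe sets called lower. Its median was -1.01, and in 17 of the 20 both TgSREBP-1a arrays were below both wild type arrays, against 23.4% of all probe sets. The lists were written with earlier results of these data known, so these counts are a description. All mice of both groups were male. Members not yet named include Sult2a8, a sulfotransferase for bile acids, which read 9.53 and 9.13 on the wild type arrays and 6.95 and 6.65 on the TgSREBP-1a arrays and fell by 2.53 ± 0.25 (5.77-fold lower, adjusted p = 2.40e-04). Aox3, an aldehyde oxidase, read 8.50 and 8.19 on the wild type arrays and 5.95 and 5.96 on the TgSREBP-1a arrays and fell by 2.39 ± 0.25 (5.23-fold lower, adjusted p = 4.03e-04). Ugt2b1, a glucuronosyltransferase, read 7.48 and 7.10 on the wild type arrays and 5.05 and 4.79 on the TgSREBP-1a arrays and fell by 2.37 ± 0.22 (adjusted p = 2.05e-04). In these 3 genes the groups were separated by far more than their duplicates. The list shares C8a, C8b, C6, Egfr, Etnppl, Gstp3, Sult2a8, Aox3 and Ugt2b1 with other lists described here. Its other falls were Moxd1, a monooxygenase relative, Scara5, a ferritin receptor, and Susd4, a complement inhibitor. They fell by 1.32 ± 0.11, 1.16 ± 0.15 and 0.86 ± 0.15. For Susd4 the call ended without TgSREBP-1a array 2 or wild type array 1 (highest adjusted p 0.13). Uncalled members ran from -0.73 to -0.02.

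Of 21 measured genes known to be higher in females 4 rose, none fell, and the median was 0.02. The 4 were Rdh9, Gstt3, Slco1a4 and Acot3. The mean level of the list was 5.51 and 5.55 on the wild type arrays, below the median of all probe sets, 5.65. That of the male-biased list was 8.34 and 8.17. Female-biased members too dim to detect in these males could not be told from unchanged ones. Rdh9, a retinol and steroid dehydrogenase, read 7.61 and 7.35 on the wild type arrays and 10.22 and 9.77 on the TgSREBP-1a arrays and rose by 2.51 ± 0.23 (5.7-fold, adjusted p = 1.57e-04). Gstt3, a glutathione transferase, read 7.14 and 7.15 on the wild type arrays and 9.27 and 9.04 on the TgSREBP-1a arrays and rose by 2.01 ± 0.12 (4.02-fold, adjusted p = 7.19e-06). The other 17 members lay between -0.19 and 0.25, and these include Cyp2c69, Fmo2, Hao2 and A1bg at -0.04, 0.00, -0.03 and 0.08.

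**Figure D3:**
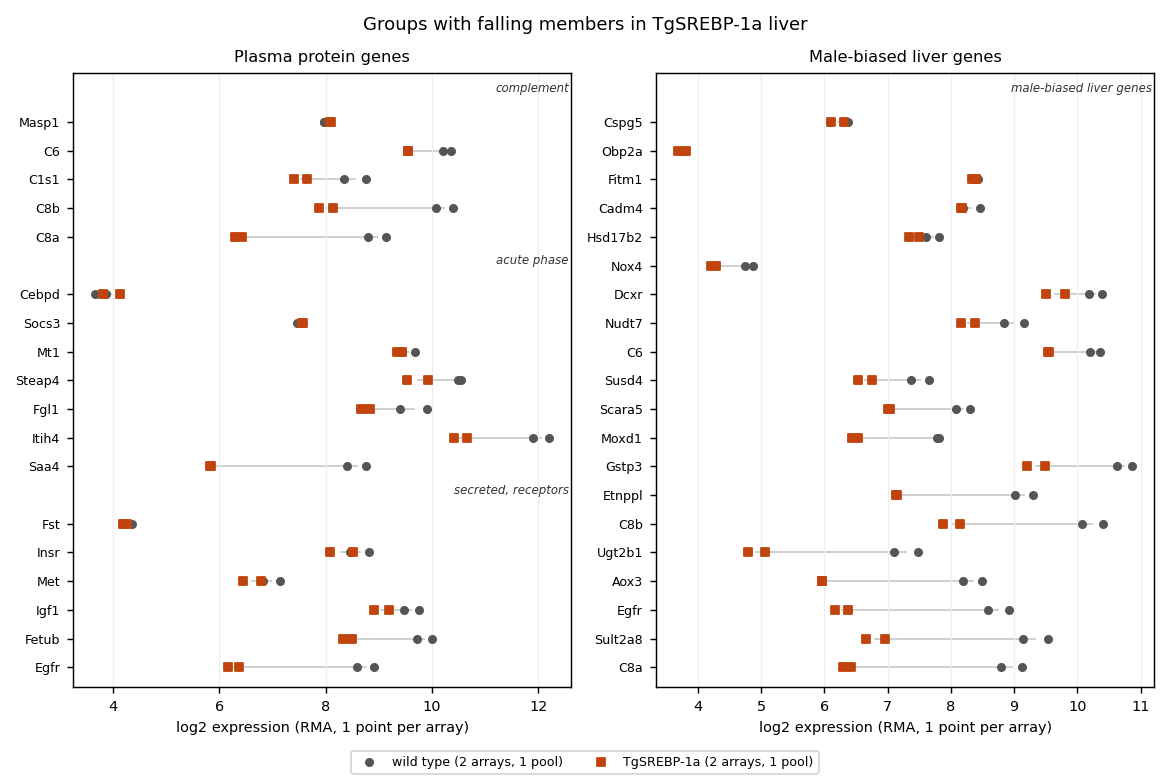
Log2 level on each of the 4 arrays (x axis) for every measured gene of 4 lists (y axis), with wild type and TgSREBP-1a arrays in different colours. The lists are complement (5), acute phase (7), secreted proteins and receptors (6) and male-biased genes (20). The 4, 3, 2 and 12 called genes all have both TgSREBP-1a arrays below both wild type arrays; some genes are in more than 1 list.

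Conjugating enzymes moved both ways, with 4 rises and 5 falls among 14 measured genes and a median of -0.32. Leaving out TgSREBP-1a array 1 or wild type array 1 left 2 rises and 3 falls, wild type array 2 left 2 rises, and TgSREBP-1a array 2 left 3 falls. The rises were Gstt3, Sult4a1, Gstm7 and Gstm4, and the falls Sult2a8, Ugt2b1, Gstp3, Ugt3a2 and Ugt2a3. For Gstm4, at 0.61 ± 0.10, the call ended without TgSREBP-1a array 1, wild type array 1 or wild type array 2 (highest adjusted p 0.13), and for Ugt2a3, at -0.85 ± 0.17, the call ended without TgSREBP-1a array 1, TgSREBP-1a array 2 or wild type array 1 (highest adjusted p 0.27). Gstp3, a glutathione transferase of the pi class, read 10.86 and 10.63 on the wild type arrays and 9.49 and 9.20 on the TgSREBP-1a arrays and fell by 1.40 ± 0.17 (adjusted p = 0.0011). Sult4a1, a sulfotransferase relative, read 7.54 and 7.47 on the wild type arrays and 9.21 and 8.77 on the TgSREBP-1a arrays and rose by 1.48 ± 0.16 (adjusted p = 6.08e-04). Gstm7 rose by 0.93 ± 0.18 (adjusted p = 0.023), and the call ended without TgSREBP-1a array 1, wild type array 1 or wild type array 2 (highest adjusted p 0.26). Ugt3a2 fell by 0.88 ± 0.20 (adjusted p = 0.044), and the call ended without any 1 of the 4 arrays (highest adjusted p 0.38). Probe sets of the glutathione transferase and Ugt2 families can share signal between close relatives. Of 11 phase I oxidases, Aox3 and Cyp2c23 fell, the latter, an arachidonate epoxygenase, from 10.08 and 9.79 to 8.87 and 8.65 (-1.18 ± 0.17, adjusted p = 0.0037), but the call ended without TgSREBP-1a array 2 or wild type array 1 (highest adjusted p 0.058). Cyp2d22, Fmo5 and Maob, other oxidases, stood at -0.19, 0.25 and 0.16.

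In the retinoid list, 2 of 11 rose and 1 fell. Rdh9 was described above. Rarres1, a retinoic acid responsive gene, read 6.29 and 6.15 on the wild type arrays and 8.05 and 7.94 on the TgSREBP-1a arrays and rose by 1.78 ± 0.21 (adjusted p = 8.53e-04). Rdh16f2, another retinol dehydrogenase, fell by 1.24 ± 0.25 (adjusted p = 0.025), and the call ended without any 1 of the 4 arrays (highest adjusted p 0.27). Of 6 steroid dehydrogenases 1 fell: Hsd17b6, which acts on androgens, read 7.26 and 6.79 on the wild type arrays and 5.41 and 5.53 on the TgSREBP-1a arrays and changed by -1.55 ± 0.18 (adjusted p = 7.03e-04). Among 15 aldehyde, alcohol and ketone reductases, Aldh9a1 rose by 0.63 ± 0.14 (adjusted p = 0.036) and Akr1c19 fell by 0.81 ± 0.18 (adjusted p = 0.043). For Aldh9a1 the call ended without TgSREBP-1a array 2, wild type array 1 or wild type array 2 (highest adjusted p 0.28), and for Akr1c19 the call ended without any 1 of the 4 arrays (highest adjusted p 0.34). Akr1d1, the reductase of bile acid and steroid metabolism, passed 1.5-fold at 0.96 ± 0.26 without a call (adjusted p = 0.11).

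Amino acid breakdown had 1 fall and no rise among 19 measured genes, with a median of -0.30. In 10 members both TgSREBP-1a arrays lay below both wild type arrays, against 23.4% of all probe sets. Etnppl, which breaks down phosphoethanolamine, read 9.30 and 9.01 on the wild type arrays and 7.14 and 7.13 on the TgSREBP-1a arrays and fell by 2.02 ± 0.13 (4.06-fold lower, adjusted p = 1.26e-05). Tdo2, the tryptophan dioxygenase of hepatocytes, stood at -1.07 ± 0.28 (adjusted p = 0.092), past 1.5-fold and uncalled. Cth and Cbs of the transsulfuration pathway stood at -0.70 and -0.58, and Gpt2, an alanine aminotransferase, at 0.89 ± 0.21 (adjusted p = 0.052). In the glucose and glycogen list, 1 of 11 fell, Ppp1r3c, which targets a phosphatase to glycogen, by 0.81 ± 0.14 (adjusted p = 0.0089), and the call ended without TgSREBP-1a array 1, TgSREBP-1a array 2 or wild type array 1 (highest adjusted p 0.11). Gys2 and Pygl, which build and break down liver glycogen, stood at -0.30 ± 0.13 and 0.59 ± 0.23.

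Of 14 genes of the unfolded protein response 2 fell and none rose. Hyou1, a chaperone of the endoplasmic reticulum, read 9.11 and 8.83 in wild type and 8.16 and 8.28 in TgSREBP-1a and fell by 0.75 ± 0.12 (adjusted p = 0.0083), but the call ended without TgSREBP-1a array 1 or wild type array 1 (highest adjusted p 0.11). Sdf2l1, which works with the same chaperone system, fell by 0.61 ± 0.11 (adjusted p = 0.015), and the call ended without TgSREBP-1a array 2, wild type array 1 or wild type array 2 (highest adjusted p 0.18). Ern1, the sensor IRE1, stood at -0.79 ± 0.27 and Edem1, which helps clear misfolded proteins, at 0.70 ± 0.19, neither called. The transcription factor list had 1 rise and 1 fall among 22. Nfyb, a subunit of the factor that binds CCAAT, rose by 0.68 ± 0.16 (adjusted p = 0.047), and the call ended without any 1 of the 4 arrays (highest adjusted p 0.36); the fall was Ppara. Rxra, Nr3c1, Thrb and Esr1, nuclear receptors of the liver, stood at -0.51, -0.18, -0.24 and -0.17.

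Among 170 measured solute carriers 3 rose and 5 fell, with a median of -0.03. Slc39a5, a zinc importer, read 8.43 and 8.53 in wild type and 9.55 and 9.49 in TgSREBP-1a and rose by 1.04 ± 0.09 (adjusted p = 1.41e-04). Slc17a2, of the phosphate and urate carrier family, read 6.55 and 5.90 in wild type and 4.60 and 4.76 in TgSREBP-1a and fell by 1.55 ± 0.20 (adjusted p = 0.0018). Slc23a1, a vitamin C carrier, rose by 1.07 ± 0.19, and the call ended without any 1 of the 4 arrays (highest adjusted p 0.16). Slc25a42, the mitochondrial carrier for coenzyme A, fell by 0.85 ± 0.15, and the call ended without any 1 of the 4 arrays (highest adjusted p 0.16). Slc39a14, a carrier of zinc, iron and manganese, fell by 0.90 ± 0.20, and the call ended without any 1 of the 4 arrays (highest adjusted p 0.35). The remaining calls of the list were Slco1a4, Slc25a30 (-0.83) and Slc25a33 (-0.75). For Slc25a30 the call ended without any 1 of the 4 arrays (highest adjusted p 0.3), and for Slc25a33 the call ended without TgSREBP-1a array 2 or wild type array 1 (highest adjusted p 0.16).

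Lists for the respiratory chain and ATP synthase (17 measured), the mitochondrial ribosome (24), insulin signalling (18), the circadian clock (13), heat shock (8), the cell cycle (8), glutathione and oxidant defence (10), the ATF4 response (8) and carboxylesterases (4) held no call on each gene's brightest probe set. Their medians lay between -0.23 and 0.03. A dimmer probe set of Nqo2, a quinone reductase of the oxidant defence list, was called higher at 0.81 ± 0.19 while the brighter stood at -0.17 ± 0.09, and the call ended without any 1 of the 4 arrays (highest adjusted p 0.41). Single calls came from heme and iron (Blvrb, a biliverdin reductase, 0.98 ± 0.13, adjusted p = 0.002), the interferon response (Oasl1, 0.91 ± 0.10, adjusted p = 4.19e-04), the proteasome (Psmb5, 0.76 ± 0.14, adjusted p = 0.013) and vesicle coats and Rab proteins (Rab30, 0.59 ± 0.12, adjusted p = 0.021). For Psmb5 the call ended without TgSREBP-1a array 1, TgSREBP-1a array 2 or wild type array 2 (highest adjusted p 0.16), and for Rab30 the call ended without any 1 of the 4 arrays (highest adjusted p 0.2).

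**Figure D4:**
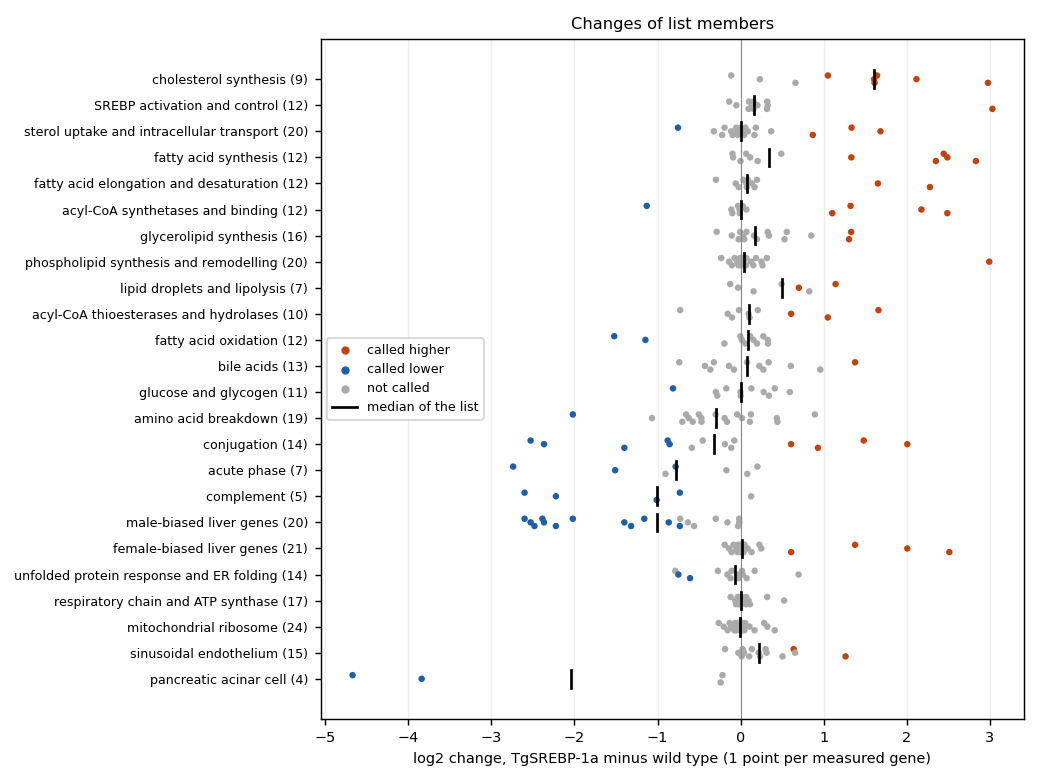
Difference between TgSREBP-1a and wild type (log2) for each measured member of 24 gene lists, 1 point per gene on its brightest probe set, with the median of each list marked. Cholesterol synthesis (median 1.61) lies furthest above 0 among the lipid lists, and the complement and male-biased lists (both -1.01) lie below 0. The list of pancreatic acinar cells (4 genes, median -2.04) lies lowest.

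Most called genes, 131 against 91, belonged to no list. Pstpip2, an adaptor of membranes and the actin cytoskeleton in blood cells, read 6.83 and 6.73 on the wild type arrays and 9.89 and 9.68 on the TgSREBP-1a arrays. It rose by 3.01 ± 0.12 (8.05-fold, adjusted p = 8.69e-07), with a second probe set at 0.23 ± 0.09. Chrna4, a subunit of neuronal nicotinic receptors, read 5.34 and 5.20 on the wild type arrays and 7.89 and 7.63 on the TgSREBP-1a arrays and rose by 2.49 ± 0.11 (5.62-fold, adjusted p = 1.06e-06). A second Chrna4 probe set rose by 1.22 ± 0.12 and another stood at -0.00. Cxadr, the coxsackievirus and adenovirus receptor of cell junctions, read 5.80 and 5.49 on the wild type arrays and 7.99 and 7.82 on the TgSREBP-1a arrays and rose by 2.26 ± 0.19 (adjusted p = 1.06e-04). For each, both TgSREBP-1a arrays were well above both wild type arrays on the probe set with the largest change.

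Further rises, from 3.14-fold to 4.06-fold, came from genes with a range of functions. Frmd4b, a scaffold of the FERM family, read 6.66 and 6.32 in wild type and 8.83 and 8.19 in TgSREBP-1a and rose by 2.02 ± 0.25 (adjusted p = 0.0012). Dpysl2, which binds tubulin in growing axons, read 6.22 and 6.13 in wild type and 8.30 and 8.07 in TgSREBP-1a and rose by 2.01 ± 0.17 (adjusted p = 1.06e-04). Rcan2, an inhibitor of calcineurin, read 5.98 and 5.96 in wild type and 7.76 and 7.90 in TgSREBP-1a and rose by 1.85 ± 0.16 (adjusted p = 1.21e-04). None of the 3 is in a list of lipid metabolism. Nt5e, the ectonucleotidase CD73 that forms adenosine, read 4.36 and 4.44 in wild type and 6.09 and 6.11 in TgSREBP-1a and rose by 1.70 ± 0.11 (adjusted p = 2.38e-05). Mfsd2a, a carrier of lysophosphatidylcholine, read 7.96 and 7.74 in wild type and 9.66 and 9.42 in TgSREBP-1a and rose by 1.69 ± 0.14 (adjusted p = 7.42e-05). Nudt18, a hydrolase of oxidised nucleotides, read 7.03 and 7.16 in wild type and 9.04 and 8.45 in TgSREBP-1a and rose by 1.65 ± 0.17 (adjusted p = 2.90e-04).

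Secisbp2l, a relative of the selenoprotein synthesis factor SBP2, rose by 2.16 ± 0.35 (adjusted p = 0.008) and, on a second probe set, by 0.86 ± 0.11. For the first the call ended without TgSREBP-1a array 1 or wild type array 2 (highest adjusted p 0.11). Echdc1, an ethylmalonyl-CoA decarboxylase that repairs a side product of lipid synthesis, read 7.57 and 6.998 in wild type and 9.14 and 8.76 in TgSREBP-1a and rose by 1.67 ± 0.33 (adjusted p = 0.021), but the call ended without any 1 of the 4 arrays (highest adjusted p 0.24). Depp1, a gene induced by FOXO factors, read 9.71 and 9.67 in wild type and 10.88 and 10.33 in TgSREBP-1a and rose by 0.92 ± 0.16 (adjusted p = 0.01), and the call ended without TgSREBP-1a array 1, wild type array 1 or wild type array 2 (highest adjusted p 0.096).

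Of the falls outside the lists, the largest was 5.05-fold. Gm4952, a predicted glycine acyltransferase, read 7.34 and 6.91 on the wild type arrays and 4.96 and 4.62 on the TgSREBP-1a arrays and fell by 2.34 ± 0.28 (adjusted p = 9.43e-04). Cmah, the hydroxylase that makes N-glycolylneuraminic acid, read 9.09 and 9.001 on the wild type arrays and 7.31 and 7.28 on the TgSREBP-1a arrays and fell by 1.75 ± 0.14 (3.37-fold lower, adjusted p = 6.03e-05). Cyp4f14, a hydroxylase of leukotrienes and vitamins, read 9.97 and 9.60 on the wild type arrays and 8.09 and 8.06 on the TgSREBP-1a arrays and fell by 1.71 ± 0.17 (3.26-fold lower, adjusted p = 2.73e-04). In Gm4952, Cmah and Cyp4f14 the groups were well apart relative to their duplicates. Ppm1k, the phosphatase that activates branched-chain keto acid breakdown, read 8.13 and 7.89 in wild type and 6.71 and 6.57 in TgSREBP-1a and fell by 1.37 ± 0.17 (adjusted p = 0.0013). Shld1, of the shieldin complex of DNA repair, read 8.92 and 8.83 in wild type and 7.67 and 7.40 in TgSREBP-1a and fell by 1.34 ± 0.11 (adjusted p = 8.96e-05). Tedc2, a protein of centrioles, read 8.50 and 8.31 in wild type and 7.20 and 7.06 in TgSREBP-1a and fell by 1.28 ± 0.14 (adjusted p = 6.08e-04).

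Nat8f2, an N-acetyltransferase, fell by 1.85 ± 0.25 on 1 probe set (adjusted p = 0.0022) and by 1.10 ± 0.17 on a brighter one, for which the call ended without TgSREBP-1a array 2 or wild type array 1 (highest adjusted p 0.073). Apon, an apolipoprotein of plasma, read 9.86 and 9.41 in wild type and 8.53 and 8.11 in TgSREBP-1a and fell by 1.31 ± 0.26 (adjusted p = 0.024), but the call ended without any 1 of the 4 arrays (highest adjusted p 0.26). Acnat1, which conjugates fatty acids to amino acids, read 7.21 and 6.87 in wild type and 5.52 and 5.79 in TgSREBP-1a and fell by 1.38 ± 0.26 (adjusted p = 0.018), but the call ended without any 1 of the 4 arrays (highest adjusted p 0.2). Fam25c read 8.85 and 8.60 in wild type and 7.19 and 7.11 in TgSREBP-1a and fell by 1.58 ± 0.14 (adjusted p = 1.42e-04), and its second probe set was at -0.17 ± 0.21.

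The smallest changes that were still called lay just above 1.5-fold. Prkca, a protein kinase C, rose by 0.59 ± 0.13 (adjusted p = 0.035) and Nudt2, a hydrolase of diadenosine tetraphosphate, by 0.59 ± 0.10 (adjusted p = 0.011). Clpx, the unfolding subunit of a mitochondrial protease, fell by 0.59 ± 0.13 (adjusted p = 0.043), and Pigl, of glycosylphosphatidylinositol anchor synthesis, by 0.59 ± 0.10 (adjusted p = 0.012). Cables1 and Zfp768 fell by 0.61 ± 0.10 and 0.59 ± 0.10, and Tnfrsf23 and 1700019D03Rik rose by 0.60 ± 0.10 and 0.60 ± 0.09. None of these 8 calls held whichever array was left out. For Prkca the call ended without any 1 of the 4 arrays (highest adjusted p 0.27), and the same held for Nudt2 (0.13), Clpx (0.39) and Zfp768 (0.14). For Pigl the call ended without TgSREBP-1a array 2, wild type array 1 or wild type array 2 (highest adjusted p 0.14). For Cables1 the call ended without TgSREBP-1a array 1, TgSREBP-1a array 2 or wild type array 1 (highest adjusted p 0.13), and for Tnfrsf23 the same 3 arrays did so (0.12). For 1700019D03Rik the call ended without TgSREBP-1a array 1 or wild type array 1 (highest adjusted p 0.076). Just outside the rule, Tifa and Cpeb4 passed 1.5-fold at -0.99 and -0.97 without reaching the adjusted p (adjusted p = 0.067 and adjusted p = 0.21).

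Markers of cell types were read as a check on what the pools held. A pool of whole liver cannot tell fewer cells of a type from less RNA per cell. Of 6 hepatocyte markers, C8a and C8b fell and none rose, with a median of -0.75. In 5 of the 6 both TgSREBP-1a arrays lay below both wild type arrays, against 23.4% of all probe sets. Tdo2, which opens tryptophan breakdown, stood at -1.07 ± 0.28, Apoa1, the main protein of HDL, at -0.42 ± 0.26, Hnf4a, a defining hepatocyte factor, at -0.42 ± 0.19 and Trf, transferrin, at 0.13 ± 0.14. The part of this in the falls of other hepatocyte genes was not tested. Periportal markers held 2 falls among 8 (Etnppl and Hsd17b6) and pericentral markers none among 7, with Glul, glutamine synthetase of the pericentral zone, at -0.31 ± 0.15. Among 15 markers of sinusoidal endothelium 2 rose and none fell, with a median of 0.22. Heg1, a receptor of endothelial junctions, read 6.97 and 6.83 in wild type and 8.30 and 8.02 in TgSREBP-1a and rose by 1.26 ± 0.18 (adjusted p = 0.0032), but the call ended without TgSREBP-1a array 1 (highest adjusted p 0.059). Lyve1, the hyaluronan receptor, rose by 0.64 ± 0.10 (adjusted p = 0.0059), and the call ended without TgSREBP-1a array 1, wild type array 1 or wild type array 2 (highest adjusted p 0.09). Stab1 and Stab2, scavenger receptors that define these cells, stood at 0.01 ± 0.11 and 0.10 ± 0.11.

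Of 4 markers of Kupffer cells 1 rose: Cd163, the receptor for haptoglobin bound to haemoglobin, by 0.91 ± 0.15 (adjusted p = 0.008), although the call ended without any 1 of the 4 arrays (highest adjusted p 0.089). The median of the 4 was 0.43. Cybb, a subunit of the phagocyte NADPH oxidase, passed 1.5-fold at 0.80 ± 0.22 without a call (adjusted p = 0.12), and Timd4, which marks resident Kupffer cells, stood at 0.07 ± 0.11. Tm4sf4, 1 of 5 cholangiocyte markers, rose by 0.96 ± 0.12 (adjusted p = 0.0014), while Sox9, Krt7 and Krt23 of the same list stood at -0.12, -0.06 and -0.00. Lists for stellate cells (7 measured), T and NK cells (2), B cells (6), erythroid cells (3), platelets (3), adipocytes (2), muscle (2), intestine (5) and kidney (3) held no call. No marker of neutrophils or of pancreatic islets was measured.

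The 2 largest falls among named genes were in markers of pancreatic acinar cells. Of 4 measured markers of pancreatic acinar cells 2 fell. Cpb1, carboxypeptidase B of pancreatic juice, read 10.01 and 9.53 on the wild type arrays and 5.22 and 4.98 on the TgSREBP-1a arrays and fell by 4.67 ± 0.21 (25.5-fold lower, adjusted p = 1.06e-06). Cela3b, a pancreatic elastase, read 10.54 and 10.12 on the wild type arrays and 6.43 and 6.55 on the TgSREBP-1a arrays and fell by 3.84 ± 0.16 (14.3-fold lower, adjusted p = 8.69e-07). Pla2g1b and Ctrc, also enzymes of acinar cells, stood at -0.24 ± 0.10 and -0.22 ± 0.10. The mean level of the 4 markers was 8.75 and 8.53 in wild type and 6.40 on both TgSREBP-1a arrays, and it was 9.52 and 9.24 in TgSREBP-2, 8.05 and 7.87 in the other wild type pool, which belongs to the Scap study, and 6.62 and 6.56 in Scap-/-. The level thus differed between the 2 wild type pools as well, and the part of pancreatic RNA in other falls was not tested.

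Set beside TgSREBP-2, which shares its wild type arrays, TgSREBP-1a differed at many of the genes above, tested as TgSREBP-1a minus TgSREBP-2 in the same limma model. That contrast called 147 probe sets higher (1.18%) and 84 lower (0.677%) in TgSREBP-1a. Without a single array of either line the counts ran from 58 and 29 (without TgSREBP-1a array 1) to 199 and 185 (without TgSREBP-2 array 2), with 76 and 46 without TgSREBP-2 array 1 and 103 and 39 without TgSREBP-1a array 2. In cholesterol synthesis 1 of 9 genes was called, and it was lower in TgSREBP-1a: Idi1, at -1.18 ± 0.16 (adjusted p = 0.0027), whose difference from wild type was 1.61 in TgSREBP-1a and 2.79 in TgSREBP-2. That call ended without TgSREBP-1a array 1 (adjusted p = 0.053, limma). Pmvk stood at 2.98 and 2.85, Lss at 1.61 and 1.44, and the direct differences, 0.13 ± 0.25 and 0.17 ± 0.15, were not called. Insig1, at 3.03 and 2.36, was likewise not called (0.67 ± 0.24, adjusted p = 0.22).

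In fatty acid synthesis 4 of 12 genes were called above their TgSREBP-2 level, and 3 or 4 were when any 1 array of the lines was left out. The calls of Fasn, Acaca and Acacb held each time. Fasn stood at 2.83 against wild type in TgSREBP-1a and 1.20 in TgSREBP-2, a direct difference of 1.64 ± 0.16 (adjusted p = 4.37e-04). For Acaca the 2 values were 2.44 and 1.06 (1.38 ± 0.14, adjusted p = 4.37e-04), and for Acacb 1.33 and -0.14 (1.48 ± 0.15, adjusted p = 5.14e-04). Acss2, at 2.49 and 1.95, was not called (0.54 ± 0.21, adjusted p = 0.27). Pctp differed most among lipid genes, at 2.99 and 0.33 (2.66 ± 0.28, adjusted p = 8.01e-04). Acot1 stood above wild type in TgSREBP-1a (1.05) and below it in TgSREBP-2 (-1.15), and the direct difference was 2.20 ± 0.18 (adjusted p = 1.35e-04).

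Falls also differed between the lines. In the male-biased list 10 of 20 genes were lower by that contrast and none was higher, with 5 lower without TgSREBP-1a array 1, 6 without TgSREBP-1a array 2, and 8 and 7 without TgSREBP-2 array 1 and 2. C8a stood at -2.60 against wild type in TgSREBP-1a and -0.02 in TgSREBP-2 (-2.58 ± 0.24, adjusted p = 3.72e-04). For Saa4 the values were -2.74 and -0.32 (-2.42 ± 0.16, adjusted p = 2.76e-05), and for Egfr -2.48 and -0.62 (-1.86 ± 0.22, adjusted p = 0.0013). Moxd1, in contrast, read -1.32 in both lines (0.00 ± 0.11, adjusted p = 1). Of the complement and acute phase lists, 3 genes each were lower. Without TgSREBP-1a array 1, TgSREBP-1a array 2 or TgSREBP-2 array 1 these counts were 2 and 1, and without TgSREBP-2 array 2 they were 2 and 3. The calls of C8a, Saa4 and Egfr, like those of Pctp and Acot1, held without any 1 of these arrays.

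**Figure D5:**
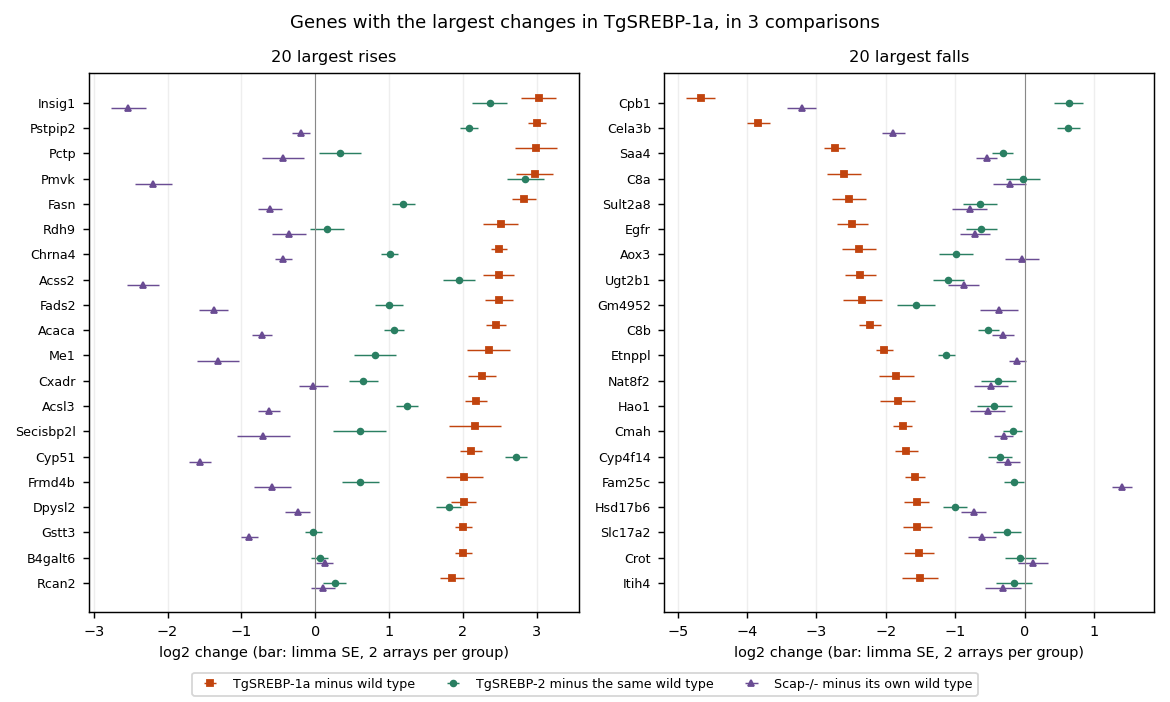
Log2 difference, with limma standard errors as bars, for the 20 genes with the largest rises and the 20 with the largest falls in TgSREBP-1a, in 3 contrasts: TgSREBP-1a and TgSREBP-2 against their shared wild type arrays, and Scap-/- against its own wild type arrays. The genes were chosen by the TgSREBP-1a values, which are shown as a description; Insig1 and Pmvk are at 3.03 and 2.98 in TgSREBP-1a and at -2.53 and -2.20 in Scap-/-.

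The Scap study shares no array with this comparison. It called 2 probe sets higher (0.0161%) and 32 lower (0.258%) in Scap-/-. Of these 32, 19 (59.4%) were among the 169 called higher in TgSREBP-1a, of which they make 11.2%. Insig1 stood at -2.53 ± 0.24 in Scap-/-, Pmvk at -2.20 ± 0.25, Acss2 at -2.33 ± 0.21 and Fads2 at -1.13 ± 0.14, each called lower there and higher in TgSREBP-1a. Fasn and Acaca, at -0.61 ± 0.16 and -0.71 ± 0.14, were not called in Scap-/-. A further 7 probe sets were lower in both (6.93% of the 101 and 21.9% of the 32). Tnfrsf12a was higher in both and Fam25c, at -1.58, was higher in Scap-/- (1.41 ± 0.14).

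Genes with several probe sets gave a check within the arrays. Of the called genes 65 had more than 1 probe set, with 92 further probe sets among them. The further probe sets had the same sign in 78 cases, 24 were called the same way, and 0 genes were called in opposite directions. Of all probe sets 1.36% were called higher and 0.814% lower, so the lack of opposite calls says little. In 16 genes every probe set was called. Wide gaps were seen in Pmvk, whose second probe set stood at -0.09 ± 0.15 beside 2.98, and Sult4a1, whose second stood at 0.20 ± 0.13 beside 1.48. Kdsr, called at 0.63, had 2 others at -0.09 and -0.02. Rab30, called at 0.59, had 1 other at -0.26, and Slc23a1, called at 1.07, had 2 others at 0.03 and 0.18. Which transcripts these probe sets detect was not analysed here.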

How the data were processed

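The deposited values are log2 expression values, made with RMA (version not given) per the submitters' processing notes. The series' design text names another Affymetrix program, Microarray Suite, and does not say how it relates to RMA. The log2 scale and near equal array medians are those RMA gives. That method subtracts background, makes the arrays alike in distribution and gives each probe set 1 value. RMA compresses differences of dim probe sets, and the number of arrays limits the precision (median standard error 0.12). In limma 3.58.1 under R 4.3.3, all 10 arrays entered a single model (lmFit, eBayes, two-sided) in which each group had its own mean, and the script was tested on simulated data. Gene names came from the platform annotation, in which 10581 probe sets had 1 symbol (7542 genes), 178 several and 1652 none. A RefSeq table (GRCm38.p6) changed 0 symbols and gave the promoter windows. Each gene of a list was represented by its brightest probe set.

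Named genes were the 30 largest rises and falls, up to 6 members of each of 67 lists (called ones first), the 8 widest gaps between probe sets, the 5 smallest calls each way, the 5 largest changes each way past the fold alone, the 10 brightest calls, 12 differences between the lines, and Scap, Srebf2, Insig1 and Fasn; other list members are described within their list. Members and lists were chosen with earlier results of these data known. Same-numbered arrays of the groups deviated together (correlation 0.41 across probe sets), but no label says that a number marks a batch. The alternatives tried were left-out arrays, fewer groups, a replicate block, other variance priors, scalings, filters and thresholds.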

Additional observations from a re-analysis of the deposited data

Results flagged for a closer look

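Of the genes called against wild type, 12 stood out for differing from TgSREBP-2 most, by the direct contrast of the lines in limma; they were chosen for that difference, so the values are a description. Pctp, the phosphatidylcholine carrier, exceeded its TgSREBP-2 level by 2.66 ± 0.28, Rarres1 by 2.68 ± 0.21 and Rdh9 by 2.36 ± 0.23. Acot1, a thioesterase, was higher by 2.20 ± 0.18, Gstt3 by 2.03 ± 0.12 and B4galt6, the lactosylceramide synthase, by 1.95 ± 0.12. Rarres1 and Acot1 stood below wild type in TgSREBP-2, at -0.90 ± 0.21 and -1.15 ± 0.18, of which the second was called.

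On the lower side, C8a of the complement stood at -2.58 ± 0.24, Saa4 at -2.42 ± 0.16, Sult2a8 at -1.89 ± 0.25 and Egfr at -1.86 ± 0.22, with 2 arrays per line in each case. All 12 calls held without any 1 array of the lines. The pancreatic enzymes Cpb1 and Cela3b differed by -5.30 ± 0.21 and -4.47 ± 0.16, where TgSREBP-2 stood at 0.63 ± 0.21 and 0.63 ± 0.16 against wild type and neither was called. Ctrc, uncalled against wild type in TgSREBP-1a, differed between the lines by -1.72 ± 0.10 (adjusted p = 1.53e-05).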

How the results depend on the processing

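No named call reversed its direction under any of the 16 alternative fits and call rules or, for genes with several probe sets, in the mean over those probe sets. Only centring, quantile normalization and that mean could have reversed a call. The other alternatives leave the difference unchanged or drop an array, and in all 270 calls the arrays of the groups did not overlap. The count of probe sets called higher ran from 87 to 143 and of those called lower from 42 to 67 when a single array was left out, where the remaining lone array was assumed to vary like the other groups. Requiring 2-fold left 84 and 49, a limma treat test against 1.5-fold left 50 and 28, and an adjusted p under 0.01 left 116 and 56; each of these keeps fewer calls by construction. With the replicate number as a block, 205 were called higher and 130 lower, among them all 270 of the main calls, and no named call was lost. Fitting the 4 arrays alone gave 214 and 138, and the 6 arrays of the transgenic study 205 and 134. Centring the arrays gave 170 and 104, quantile normalization 183 and 122, leaving out dim probe sets 134 and 92, and no fold minimum 218 and 121. Of the 119 named calls, 70 held whichever array was left out, 37 were lost at 2-fold, 29 at an adjusted p under 0.01 and 60 under treat. The variance trend ended 2 and the robust prior, centring and quantile normalization 1 each. Since every count rests on 2 hybridisations of 1 pool per group, differences between mice could not be seen. Leaving out arrays of either line for the contrast between the lines was chosen after the data were seen.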

Other observations

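Beyond the lists described above, genes called between the lines without a call against wild type gave a few values on lipid droplets and amino acids. Hsd17b13, a lipid droplet protein, read 7.26 and 6.97 in wild type and 8.04 and 7.85 in TgSREBP-1a, and stood at 0.83 ± 0.24 against wild type in TgSREBP-1a and at -1.10 ± 0.24 in TgSREBP-2; the direct difference was 1.93 ± 0.24 (adjusted p = 0.0018, limma). Gpt2, an alanine aminotransferase, stood at 0.89 ± 0.21 and -0.54 ± 0.21, a direct difference of 1.44 ± 0.21 (adjusted p = 0.0043, limma). Fgl1, a secreted liver protein, stood at -0.90 ± 0.22 and 0.37 ± 0.22, with a direct difference of -1.28 ± 0.22 (adjusted p = 0.013, limma). In each of the 3 the lines lay on opposite sides of wild type. Without TgSREBP-1a array 1 or TgSREBP-2 array 1 the calls of Gpt2 and Fgl1 ended (highest adjusted p 0.077 and 0.12, limma), that of Fgl1 also without TgSREBP-1a array 2. These 3 genes were chosen after their values were seen, and the lines share their wild type arrays.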
